A study of Mus musculus with 4 samples.

Results

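Acinar cells were the barcodes in which the RNA of 12 pancreatic digestive enzyme genes (Prss2, Try4, Try5, Cpa1, Cpb1, Cela1, Cela2a, Cela3b, Ctrb1, Clps, Pnlip and Cel) together held at least 5% of the unique molecular identifiers (UMIs), with at least 4 of the 12 genes detected. They numbered 133 of the 14298 barcodes that passed limits of 500 or more UMIs, 250 or more genes and a mitochondrial share of 20% or less. Of these, 90 came from the library TAK-981 1, 32 from TAK-981 2, 11 from vehicle 1 and 0 from vehicle 2. The series holds 4 single-cell libraries, each from the tumour of 1 mouse: 2 mice received TAK-981 (Subasumstat), an inhibitor of the SUMO-activating enzyme, and 2 received the vehicle, Cremophor. All 4 tumours were pancreatic ductal adenocarcinomas labelled as the KPC46 organoid in mice of the strain B6/129 F1J, so every group rests on a single tumour line. The age and sex of the mice, the dose and the schedule are not given in the sources used here. The tumours were dissociated to single cells, red cells were lysed, and dead cells were removed from samples of low viability, without a record of which samples those were. No step sorted for acinar cells.

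Acinar cells are the enzyme-secreting cells of the exocrine pancreas. They make zymogens such as trypsinogens, chymotrypsinogens, procarboxypeptidases and proelastases, and lipases with their cofactor colipase, and store them in granules that are released into the ducts. The transcription factor complex PTF1, which holds Ptf1a and Rbpjl, binds a paired E-box and TC-box upstream of enzyme genes and drives their transcription. In injury and inflammation, acinar cells make secreted lectins of the Reg family, lose enzyme RNA and can take on ductal traits.

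The regions upstream of the enzyme gene and of the Reg genes with the most RNA in these cells are shown because these genes were read out together in all 3 libraries with acinar cells. Each is 250 bases before the RefSeq start (GRCm38.p6), read 5′ to 3′ on the strand of the gene, and capitals mark matches to the TC-box core TGGGAA or its reverse complement TTCCCA and to the E-box CANNTG. Ctrb1 encodes chymotrypsinogen B and Prss2 a major trypsinogen, while Reg3b and Reg2 encode secreted lectins. Their windows lie at chr8:111691011-111691260 (minus strand), chr6:41521526-41521775, chr6:78370635-78370884 and chr6:78404905-78405154 (all plus strand).
Ctrb1: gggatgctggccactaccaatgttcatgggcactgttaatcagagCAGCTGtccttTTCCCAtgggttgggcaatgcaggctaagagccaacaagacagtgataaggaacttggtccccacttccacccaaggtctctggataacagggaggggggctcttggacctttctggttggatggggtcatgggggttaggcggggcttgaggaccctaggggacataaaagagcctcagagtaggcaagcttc
Prss2: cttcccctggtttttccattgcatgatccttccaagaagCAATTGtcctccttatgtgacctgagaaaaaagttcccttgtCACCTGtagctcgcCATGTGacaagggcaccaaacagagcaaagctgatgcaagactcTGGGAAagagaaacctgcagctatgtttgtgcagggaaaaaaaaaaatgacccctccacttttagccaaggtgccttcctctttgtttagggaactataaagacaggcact
Reg3b: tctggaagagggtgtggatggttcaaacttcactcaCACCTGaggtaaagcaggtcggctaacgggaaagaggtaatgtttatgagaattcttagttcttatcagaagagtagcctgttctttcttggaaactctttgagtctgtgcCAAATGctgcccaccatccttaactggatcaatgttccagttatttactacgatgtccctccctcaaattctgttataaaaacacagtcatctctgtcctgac
Reg2: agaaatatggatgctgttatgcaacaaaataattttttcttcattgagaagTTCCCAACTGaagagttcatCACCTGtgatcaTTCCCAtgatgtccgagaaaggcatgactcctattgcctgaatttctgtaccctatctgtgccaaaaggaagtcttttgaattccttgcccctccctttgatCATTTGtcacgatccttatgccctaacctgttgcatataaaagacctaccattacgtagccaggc
The TC-box core was present in 6 of the 10 rule genes that had a RefSeq window and in 5 of 7 Reg genes, against 21.6% of all 32851 windows. The E-box was present in 9 of 10 rule genes and 7 of 7 Reg genes, against 66.2% of all windows. In the Reg2 window 1 TC-box core and 1 E-box share 2 bases, and Reg3b has E-boxes but no TC-box core. A match describes letters in the window and does not show that a factor binds there. GENCODE models of both Reg genes start further upstream than the RefSeq start used here.

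Library totals were 26376608 and 63898758 UMIs under TAK-981, against 24411656 and 29041348 in vehicle. Kept barcodes numbered 2255 and 3191 under TAK-981, against 4576 and 4276 in vehicle. Pairs of libraries shared 1 to 6 kept barcode sequences, and no acinar barcode sequence was acinar in another library. Other epithelial barcodes, defined by at least 3 of 7 epithelial markers without Ptprc, numbered 5201 and are the main comparison class, and 2177 macrophage barcodes with at least 2 of Csf1r, C1qa, C1qb and C1qc serve as cells that should lack enzyme RNA.

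The label was checked on the 6 markers Prss2, Cpa1, Ctrb1, Cela2a, Clps and Pnlip, which are all part of the membership rule, so their presence is not a finding. Together they held 16.8 and 26.2% of acinar UMIs under TAK-981, against 26.6% in vehicle 1, and in other epithelial barcodes of these libraries they held 0.0264 and 0.0046% under TAK-981, against 0.0016% in vehicle 1. Genes that the rule did not use point the same way. Of 15 genes outside the rule with the highest lowest ratio of acinar to all other barcodes over the 3 libraries, Rnase1, a pancreatic ribonuclease, led with ratios of 1134 and 3490 in TAK-981 1 and TAK-981 2, against 15138 in vehicle 1. Gp2, a zymogen granule membrane protein, followed with ratios of 1121 and 6324 under TAK-981, against 4619 in vehicle 1. The remaining 13 were Pnliprp2, Klk1, Reg3g, Reg3a, Sycn, Reg2, Reg3b, Pnliprp1, Prss3, Reg1, Cuzd1, Zg16 and Reg3d, each an exocrine secretory or Reg gene.

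Enzyme share ran on across the limit in TAK-981 1, while a gap separated most acinar barcodes from the rest in the other libraries. In TAK-981 1 the 3 acinar barcodes closest to the limit had 5.04, 5.80 and 5.92% enzyme UMIs, and the 3 barcodes just outside it had 4.89, 4.87 and 4.69%. In TAK-981 2 the lowest acinar barcodes had 5.32, 7.23 and 19.96%, and the highest outside had 4.66, 3.01 and 2.15%. Vehicle 1 had 7.55, 14.7 and 27.5% just inside and 3.13, 2.08 and 1.56% just outside. The outside barcodes given for each library are those with at least 4 of the 12 genes detected. In vehicle 1 a further barcode, with 3 genes detected, had 4.05%. No kept barcode of vehicle 2 reached 1%.

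The acinar share of kept barcodes was 3.99% in TAK-981 1 (95% Clopper-Pearson interval 3.22 to 4.88) and 1.00% in TAK-981 2 (0.687 to 1.41), against 0.240% in vehicle 1 (0.120 to 0.430). Vehicle 2 had 0 of 4276, an upper limit of 0.0702% by a floor of 3 barcodes and of 0.0862% by the interval. Counting error alone enters these limits, and none of the 4 intervals overlaps another. The mean was 2.497% ± 2.11 under TAK-981 and 0.120% ± 0.170 in vehicle (SD, n = 2 mice each). Both TAK-981 libraries lay above both vehicle libraries, and the exact two-sided permutation p was 0.333, the smallest that 2 against 2 libraries allow. TAK-981 1 carried most of the difference, which was 2.38 percentage points with all libraries, 0.883 when TAK-981 1 was left out and 3.87 when TAK-981 2 was left out. At a stricter limit of 25% enzyme UMIs, chosen after the data were seen, the mean was 1.28% ± 0.571 under TAK-981 and 0.0983% ± 0.139 in vehicle (SD, n = 2).

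**Figure D1:**
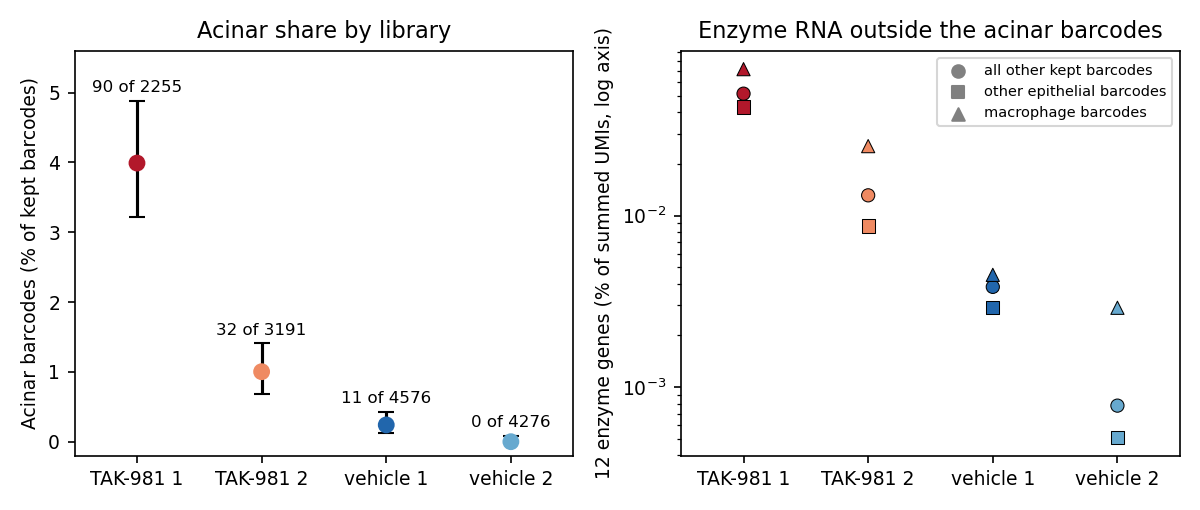
Left, the acinar share of kept barcodes in each library (points) with its 95% Clopper-Pearson interval (bars) and the counts above, from 90 of 2255 barcodes in TAK-981 1 to 0 of 4276 in vehicle 2. Right, the percent of summed UMIs that fell on the 12 enzyme genes in barcodes that were not acinar (log axis), by class (marker shape), where the libraries follow the same order as on the left.

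Enzyme RNA was also found at a low level in barcodes outside the class, in the same order of libraries. The 12 genes held 0.0515 and 0.0131% of the UMIs of all other kept barcodes under TAK-981, against 0.00384 and 0.000779% in vehicle. In macrophage barcodes they held 0.0716 and 0.0254% under TAK-981, against 0.00451 and 0.00290% in vehicle. The macrophage value of vehicle 2 was 50 UMIs of 1 of the 12 genes, and the 6 acinar markers had 0 UMIs there. Over all other barcodes of vehicle 2, the 6 markers held 22 of the 223 enzyme UMIs. The mean over other barcodes was 0.0323% ± 0.0271 under TAK-981 and 0.00231% ± 0.00216 in vehicle (SD, n = 2 each, exact permutation p = 0.333, the smallest possible). The highest enzyme share in a single barcode outside the class was 4.89 and 4.66% under TAK-981, against 4.05 and 0.359% in vehicle. After thinning to 500 UMIs, Ctrb1 was detected in 100% of acinar barcodes in each of the 3 libraries, and in 13.0 and 3.86% of other barcodes under TAK-981, against 0.613% in vehicle 1. Macrophage barcodes were taken from outside the acinar class, so a level below the limit of 5% was largely set in advance. The highest enzyme share in a single macrophage barcode was 4.89 and 0.797% under TAK-981, against 0.871 and 0.0840% in vehicle.

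Among the 12 rule genes, Ctrb1 had the most RNA, with 82805 and 142907 CPM (UMIs of the gene scaled to the summed acinar UMIs of the library) under TAK-981, against 108889 CPM in vehicle 1. Prss2 had 68058 and 63584 CPM under TAK-981, against 72551 CPM in vehicle 1. Try5, another trypsinogen, had 63375 and 63740 CPM under TAK-981, against 39358 CPM in vehicle 1. These 3 genes were detected in every one of the 133 acinar barcodes. The proelastases Cela2a and Cela3b had 3616 and 7881 CPM in TAK-981 1, 23209 and 18898 CPM in TAK-981 2, and 10956 and 21731 CPM in vehicle 1. The procarboxypeptidase genes Cpa1 and Cpb1 had 8401 and 3739 CPM in TAK-981 1, 11609 and 8262 CPM in TAK-981 2, and 13993 and 13632 CPM in vehicle 1. Vehicle 1 was above both TAK-981 libraries for both procarboxypeptidases, while TAK-981 2 was highest for Cela2a.

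The lipid-digesting genes and the proelastase gene Cela1 varied widely between libraries. Cela1 had 1200 and 7865 CPM under TAK-981, against 12764 CPM in vehicle 1. Clps, which encodes colipase, had 2884 and 10074 CPM under TAK-981, against 38562 CPM in vehicle 1. Pnlip, pancreatic triglyceride lipase, had 2066 and 10333 CPM under TAK-981, against 21478 CPM in vehicle 1. Cel, the bile salt-activated lipase, had 1652 and 2309 CPM under TAK-981, against 4140 CPM in vehicle 1. For these 4 genes vehicle 1 was highest and TAK-981 1 lowest. Pnlip was detected in 33 of 90 acinar barcodes of TAK-981 1, in 32 of 32 of TAK-981 2 and in 8 of 11 of vehicle 1. At 500 UMIs per barcode Pnlip was detected in 22.2 and 90.6% under TAK-981, against 63.6% in vehicle 1, so TAK-981 1 and TAK-981 2 differed at equal depth. These 12 genes chose the barcodes, and their levels are given as a description without a test.

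Trypsinogen RNA took a similar part of the acinar UMIs in each library while its members differed. The 11 trypsinogen genes measured, Prss2, Try4, Try5, Try10, Prss1, Prss3, 2210010C04Rik, Gm5771, Gm10334, 1810009J06Rik and Gm2663, summed to 16.8 and 19.9% of acinar UMIs under TAK-981, against 17.0% in vehicle 1. Prss3 had 2060 and 7122 CPM under TAK-981, against 325 CPM in vehicle 1. Gm10334 had 1524 and 1567 CPM under TAK-981, against 36.2 CPM from 2 UMIs in vehicle 1. 1810009J06Rik had 117 and 764 CPM under TAK-981, against 0 UMIs in vehicle 1. Gm5771 had 0 and 662 CPM under TAK-981, against 0 in vehicle 1, so it was seen in TAK-981 2 alone. Each pair of TAK-981 values lay above vehicle 1 for Prss3, Gm10334 and 1810009J06Rik. Close copies limit these values: the longest transcripts of Prss3 and Gm10334 were 98.9% identical over 821 aligned bases, those of 1810009J06Rik and Gm2663 99.4% over 862, and those of Try4 and Try5 97.1% over 801. How counting split reads among such copies was not tested, and the family sum is the safer quantity.

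Amylase RNA was close to absent from the count tables. Amy2a5, a pancreatic amylase copy, had 31.9 and 78.7 CPM under TAK-981, against 362 CPM in vehicle 1. Amy1 went the other way, with 74.3 and 77.3 CPM under TAK-981, against 18.1 CPM from 1 UMI in vehicle 1. Amy2a2, Amy2a3 and Amy2a4 had 5.31 to 24.8 CPM under TAK-981, and in vehicle 1 Amy2a2 had 36.2 CPM and the other two had 0 UMIs. Their annotated transcripts are 100% identical to one another over 3717 bases and 98.5% identical to that of Amy2a5, so a UMI from them cannot be placed on 1 copy. The amylase values thus do not measure total amylase RNA.

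Reg family RNA, which the rule did not use, was the largest other component of the acinar transcriptome. It held 16.4 and 13.0% of acinar UMIs under TAK-981, against 14.9% in vehicle 1, and in other epithelial barcodes it held 0.0230 and 0.0029% under TAK-981, against 0.0012% in vehicle 1. Reg3b, the gene of a lectin also called pancreatitis-associated protein, had 68042 and 46548 CPM under TAK-981, against 49518 CPM in vehicle 1. Reg2 had 42600 and 36816 CPM under TAK-981, against 44330 CPM in vehicle 1. Reg1, the lithostathine gene, had 38607 and 32616 CPM under TAK-981, against 46011 CPM in vehicle 1. Reg3b, Reg2 and Reg1 were each detected in all 133 acinar barcodes. Vehicle 1 lay between the TAK-981 libraries for Reg3b and above both for Reg2 and Reg1. Reg3a had 7631 and 7899 CPM under TAK-981, against 4592 CPM in vehicle 1, and Reg3g had 6096 and 4395 CPM under TAK-981, against 3200 CPM in vehicle 1. Reg3d had 988 and 1634 CPM under TAK-981, against 1229 CPM in vehicle 1, and Reg4 had 0 UMIs in all 3. Per acinar barcode the Reg share had a median of 13.6% (range 2.73 to 32.9) in TAK-981 1 and 13.6% (1.69 to 26.8) in TAK-981 2, against 15.4% (6.48 to 19.9) in vehicle 1. The 3 medians lay close together, whereas the ranges within a library were wide.

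**Figure D2:**
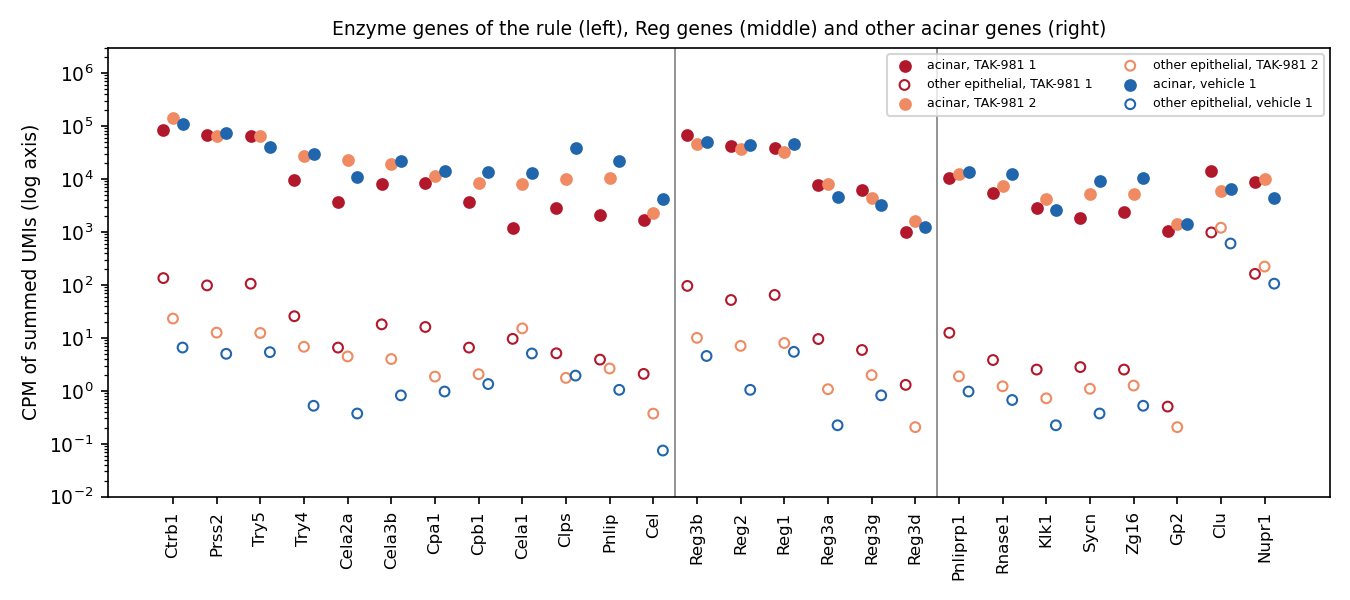
CPM of summed UMIs (log axis) in acinar barcodes (filled points) and in other epithelial barcodes of the same library (open points) for rule genes, Reg genes and other acinar genes, with TAK-981 libraries left of vehicle 1 for each gene and genes at 0 not drawn. Filled and open points stand far apart for every gene except Clu and Nupr1, where other epithelial barcodes also held RNA, and the filled points of Clps and Pnlip lie far apart between libraries.

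Digestive enzymes outside the rule and granule cargo completed the secretory RNA. Pnliprp1, a lipase-related protein, had 10238 and 12562 CPM under TAK-981, against 13487 CPM in vehicle 1. Rnase1 had 5507 and 7400 CPM under TAK-981, against 12384 CPM in vehicle 1. Klk1, a tissue kallikrein, had 2836 and 4251 CPM under TAK-981, against 2621 CPM in vehicle 1. Vehicle 1 was above both TAK-981 libraries for Pnliprp1 and Rnase1 and below both for Klk1. Zg16 and Sycn, granule proteins, had 2406 and 1811 CPM in TAK-981 1, 5089 and 5205 CPM in TAK-981 2, and 10233 and 9166 CPM in vehicle 1. Spink1, the secreted trypsin inhibitor, had 993 and 1806 CPM under TAK-981, against 6689 CPM in vehicle 1. Zg16, Sycn and Spink1 were all highest in vehicle 1 and lowest in TAK-981 1. Secretory genes and Reg genes together held 47.8 and 61.5% of acinar UMIs under TAK-981, against 64.3% in vehicle 1.

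RNA of acinar transcription factors was sparse. Ptf1a had 42.5 and 24.8 CPM under TAK-981, against 18.1 CPM from 1 UMI in vehicle 1. Rbpjl had 37.2 and 17.49 CPM under TAK-981, against 0 UMIs in vehicle 1. Nr5a2, a nuclear receptor of the exocrine programme, had 0 and 35.0 CPM under TAK-981, against 0 in vehicle 1. These values rest on few UMIs. Xbp1, which drives secretory capacity, had 319 and 200 CPM under TAK-981, against 434 CPM in vehicle 1, and was above the 80.0, 92.0 and 36.7 CPM of other epithelial barcodes in TAK-981 1, TAK-981 2 and vehicle 1. Bhlha15 had 0 and 4.37 CPM under TAK-981, against 0 in vehicle 1, and Gata4 had 0 and 4.37 CPM under TAK-981, against 18.1 CPM in vehicle 1. Gata6 and Foxa2, which other epithelial barcodes also express, had at most 13.1 CPM in acinar barcodes of any library. Endoplasmic reticulum folding genes held 0.229 and 0.220% of acinar UMIs under TAK-981, against 0.146% in vehicle 1, which was below the 0.616 and 0.604% under TAK-981 and the 0.381% in vehicle 1 of other epithelial barcodes. Hspa5, the BiP chaperone, had 340 and 262 CPM in acinar barcodes under TAK-981, against 127 CPM in vehicle 1.

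Clu and Nupr1 were higher in acinar than in other epithelial barcodes of each library. Clu, which encodes clusterin and is raised in damaged acinar cells, had 14285 and 5900 CPM under TAK-981, against 6526 CPM in vehicle 1. In other epithelial barcodes Clu had 976 and 1199 CPM under TAK-981, against 604 CPM in vehicle 1. Nupr1, a stress-induced chromatin protein, had 8805 and 10164 CPM in acinar barcodes under TAK-981, against 4321 CPM in vehicle 1. Other epithelial barcodes held Nupr1 at 161 and 221 CPM under TAK-981, against 105 CPM in vehicle 1. The list of 13 genes of acinar to ductal change, which holds Clu, summed to 1.78 and 0.897% of acinar UMIs under TAK-981, against 0.732% in vehicle 1, and to 1.17 and 1.33% of other epithelial UMIs under TAK-981, against 0.854% in vehicle 1. In each of the 3 libraries 3 of its genes, Clu, Epcam and Muc1, were above the other epithelial level and 9 were below it. Epcam, an adhesion molecule of epithelia, had 244 and 111 CPM in acinar barcodes under TAK-981, against 145 CPM in vehicle 1, and 12.9 and 5.79 CPM in other epithelial barcodes under TAK-981, against 13.9 CPM in vehicle 1. Muc1, a membrane mucin, had 122 and 90.4 CPM in acinar barcodes under TAK-981, against 163 CPM in vehicle 1, and 15.2 and 20.9 CPM in other epithelial barcodes under TAK-981, against 18.3 CPM in vehicle 1. Krt19 and Sox9 were among those below. Krt19, a ductal keratin, had 218 and 147 CPM in acinar barcodes under TAK-981, against 18.1 CPM in vehicle 1, and 978 and 1018 CPM in other epithelial barcodes under TAK-981, against 846 CPM in vehicle 1. Sox9, a ductal transcription factor, had 69.0 and 27.7 CPM in acinar barcodes under TAK-981, against 0 UMIs in vehicle 1.

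The acinar barcodes of the 3 libraries differed in depth and composition. The median was 1258 UMIs (range 516 to 23783) in TAK-981 1 and 12526 (1436 to 103853) in TAK-981 2, against 4580 (2624 to 9446) in vehicle 1. Median genes per barcode were 343 and 1295 under TAK-981, against 461 in vehicle 1. Enzyme share had a median of 21.5% in TAK-981 1 and 48.5% in TAK-981 2, against 44.5% in vehicle 1, so TAK-981 1 stood apart from the other two. The mitochondrial share had a median of 7.24% (0.455 to 19.7) in TAK-981 1 and 0.135% (0 to 7.81) in TAK-981 2, against 0.258% (0 to 0.686) in vehicle 1. Other epithelial barcodes had medians of 5.28 and 5.39% under TAK-981, against 3.73% in vehicle 1, so the acinar barcodes of TAK-981 2 and vehicle 1 held less mitochondrial RNA than other epithelial barcodes of the same library. Malat1, a nuclear RNA, was detected in 36.7 and 46.9% of acinar barcodes under TAK-981, against 9.09% in vehicle 1, and in 84.5 and 93.4% of other epithelial barcodes under TAK-981, against 89.0% in vehicle 1. At 500 UMIs the acinar percentages were 22.2 and 21.9 under TAK-981, against 0 of 11 barcodes in vehicle 1.

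**Figure D3:**
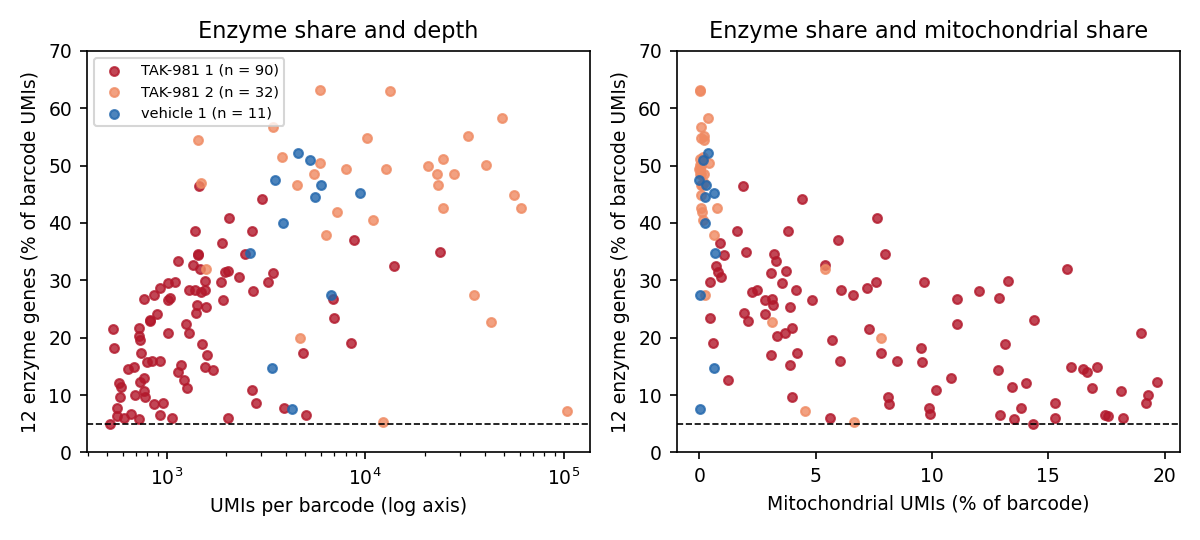
Each point is 1 acinar barcode, with the share of its UMIs on the 12 enzyme genes (vertical axes) against its UMIs (left, log axis) and its mitochondrial share (right); the dashed line is the limit of 5%. Barcodes of TAK-981 1 are shallower, with a median of 1258 UMIs, and spread to a mitochondrial share of 19.7%, while those of TAK-981 2 and vehicle 1 gather at low mitochondrial and high enzyme shares.

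Within a library, enzyme share and mitochondrial share ran in opposite directions under TAK-981. Spearman's rho over barcodes was -0.60 in TAK-981 1 (n = 90) and -0.57 in TAK-981 2 (n = 32), against 0 in vehicle 1 (n = 11). These barcodes share a library and both measures are parts of the same total, so the values describe and do not test. Enzyme and Reg share had a rho of 0.71 in TAK-981 1 and 0.08 in TAK-981 2, against -0.61 in vehicle 1, with no shared sign. A few barcodes weigh heavily in the summed counts: the deepest held 12.6 and 15.1% of the acinar UMIs under TAK-981, against 17.1% in vehicle 1. In TAK-981 2 the 4 barcodes with under 25% enzyme UMIs held 23.9% of the acinar UMIs and 86.5% of the acinar mitochondrial UMIs. Gm42418, a predicted gene that overlaps a ribosomal RNA repeat, held 4.09 and 0.397% of acinar UMIs under TAK-981, against 9.25% in vehicle 1. In other epithelial barcodes Gm42418 held 0.784 and 0.494% under TAK-981, against 2.53% in vehicle 1 and 0.682% in vehicle 2. Vehicle 2 thus lay between the TAK-981 libraries there, and vehicle 1 above all of them.

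Markers of other cell types were sparse except for those of epithelium and, in the TAK-981 libraries, macrophages. All 5 erythroid markers and all 6 B or plasma cell markers had 0 UMIs in acinar barcodes of the 3 libraries. The 8 islet markers and the 6 endothelial markers had 1 and 2 UMIs at most, from 1 barcode each of TAK-981 2. At least 3 of 10 ductal or tumour epithelial markers were found in 40 of 90 and 22 of 32 acinar barcodes under TAK-981, against 3 of 11 in vehicle 1, and the list held 0.273 and 0.199% of UMIs under TAK-981, against 0.0832% in vehicle 1. At least 3 of 8 macrophage markers were found in 9 of 90 and 2 of 32 acinar barcodes under TAK-981, against 0 of 11 in vehicle 1. The macrophage list held 0.124 and 0.0455% of acinar UMIs under TAK-981, against 0.0054% in vehicle 1, where Csf1r, C1qa, C1qb, C1qc, Adgre1 and Cd68 were at 0. Neutrophil, T or NK, dendritic, fibroblast and mesothelial markers each held at most 0.0064% of acinar UMIs in any library. The score-based doublet step removed 0 and 2 acinar barcodes under TAK-981 and 0 in vehicle 1.

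Sex-linked RNA differed between acinar and other epithelial barcodes. Xist, the RNA of the inactive X chromosome, had 771 and 1293 CPM in other epithelial barcodes under TAK-981, against 993 and 1131 CPM in vehicle. The 4 Y-linked genes Ddx3y, Uty, Kdm5d and Eif2s3y summed there to 3.67 and 1.96 CPM under TAK-981, against 2.09 and 1.82 CPM in vehicle. Macrophages showed the reverse, with Y-linked sums of 178 and 204 CPM under TAK-981, against 205 and 154 CPM in vehicle, and Xist at 5.78 and 18.003 CPM under TAK-981, against 5.52 and 26.1 CPM in vehicle. The libraries of both groups shared this split between epithelium and macrophages. Acinar barcodes with at least 25% enzyme UMIs had 17.9 and 3.83 CPM of Xist, 2 UMIs in each TAK-981 library, against 0 in vehicle 1. Their Y-linked sum was 26.8 CPM from 3 UMIs and 9.58 CPM from 5 UMIs under TAK-981, against 0 UMIs in vehicle 1. Acinar barcodes with under 25% enzyme UMIs had a Y-linked sum of 91.7 and 61.0 CPM under TAK-981, against 0 in vehicle 1. Xist in these was 0 in TAK-981 1 and 329 CPM in TAK-981 2, against 0 in vehicle 1; in TAK-981 2, 54 UMIs came from 2 barcodes, 1 of which held 44. Xist in acinar barcodes with high enzyme share thus lay below the level of other epithelial barcodes, on few UMIs. Other nuclear-retained RNA was also low in acinar barcodes: the list of Malat1, Neat1, Meg3 and Kcnq1ot1 held 0.201 and 0.0942% of acinar UMIs under TAK-981, against 0.0036% in vehicle 1, and 0.689 and 1.18% of other epithelial UMIs under TAK-981, against 0.844% in vehicle 1. The part of this in the Xist values was not tested. Over all 11 acinar barcodes of vehicle 1 a count of 0 allows up to 54.2 CPM, which lies below the Xist level of other epithelial barcodes and the Y-linked sum of macrophages in that library.

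**Figure D4:**
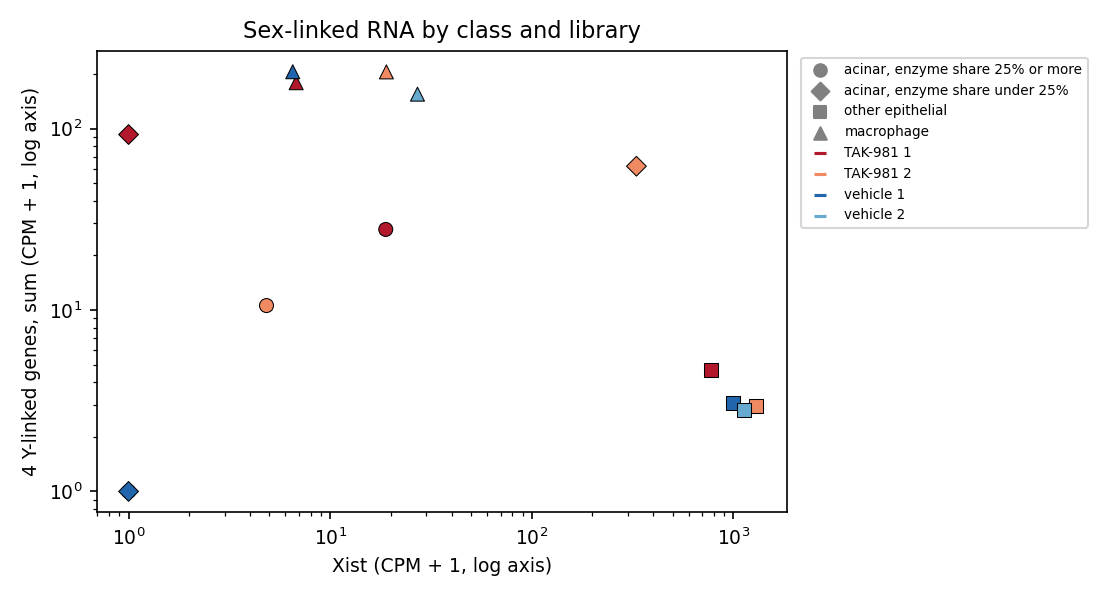
Xist against the sum of 4 Y-linked genes (CPM + 1, log axes) by class (marker shape) and library (colour), with acinar barcodes split at 25% enzyme UMIs; both acinar points of vehicle 1 lie at 0 UMIs of either measure. Other epithelial barcodes lie at the right with high Xist, macrophages at the top left with high Y-linked RNA, and 3 of the 4 acinar points under TAK-981 lie at low Xist.

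The effect of TAK-981 on acinar RNA could be compared only as 2 libraries against 1, since vehicle 2 had no acinar barcode. Among the genes called higher under TAK-981 were mitochondrially encoded genes, Malat1 and the trypsinogens Prss3 and Gm10334, which are close copies of each other. The trypsinogens 1810009J06Rik and Gm5771 were also called, but both had 0 UMIs in vehicle 1 and so could only be fitted as higher. Gm5771 had 0 UMIs in TAK-981 1 as well. Called lower were 30 genes, among them 8 of 79 ribosomal protein genes and the trypsin inhibitor gene Spink1. The edgeR quasi-likelihood test called 53 of 1440 genes (3.68%), 23 higher (1.6%) and 30 lower (2.08%), at a Benjamini-Hochberg adjusted p below 0.05. Clps, one of the 30 lower genes, belongs to the rule, so its call is read as no test, and without the 12 rule genes 52 of 1428 were called, 23 higher and 29 lower. The lone vehicle library is assumed to vary like the TAK-981 libraries, so all spread in the fit comes from those 2, with 90 and 32 barcodes, and the adjusted p compares these libraries. The call count was 0 with DESeq2 size factors in edgeR, with acinar barcodes of at least 10% or at least 25% enzyme UMIs, or with doublets removed; DESeq2 called 14 (0.972%). Without composition scaling 116 genes were higher and 19 lower, and the median over all genes was 1.13 (log2) in place of 0.48, so directions are relative to the scaling used.

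Of the 11 mitochondrially encoded genes tested, 7 passed as higher, 4 did not pass and 0 passed as lower, and their median was 2.91 (log2), against 0.48 over all genes tested. Among them mt-Nd1, a subunit of respiratory complex I, had 4376 and 929 CPM under TAK-981, against 163 CPM in vehicle 1 (log2 fold change 3.37 ± 0.85 SE, edgeR adjusted p = 0.00984). Malat1 had 1954 and 746 CPM under TAK-981, against 18.1 CPM from 1 UMI in vehicle 1 (5.57 ± 1.08 SE, edgeR adjusted p = 0.000554). TAK-981 1, whose acinar barcodes had the highest mitochondrial share, was highest for both. In TAK-981 2 the 4 barcodes with under 25% enzyme UMIs held 86.5% of the mitochondrial UMIs, and the median mitochondrial share per barcode was 0.135%, against 0.258% in vehicle 1. Over barcodes of at least 25% enzyme UMIs, mt-Nd1 had 3126 and 105 CPM under TAK-981, against 147 CPM in vehicle 1, so TAK-981 2 was then below vehicle 1. The mitochondrial share of these summed UMIs was 4.35 and 0.217% under TAK-981, against 0.304% in vehicle 1. Malat1 had 1125 and 97.7 CPM there under TAK-981, against 21.0 CPM from 1 UMI in vehicle 1. With barcodes of at most 10% mitochondrial UMIs 3 genes were called higher and 19 lower.

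Of the trypsinogens, Gm10334 was called higher with a log2 fold change of 4.84 ± 0.96 SE (edgeR adjusted p = 0.000712) and Prss3 with 3.31 ± 0.85 SE (edgeR adjusted p = 0.0124). 1810009J06Rik was called higher and had 0 UMIs in vehicle 1, where the floor of 3 UMIs is 54.2 CPM. In CPM without the TMM scaling of the fit, its lower TAK-981 library was at least 2.15-fold above that floor. With that scaling its mean TAK-981 level was 2.45 (log2) above the floor. Gm5771 was called from TAK-981 2 alone (edgeR adjusted p = 0.0333), with TAK-981 1 and vehicle 1 both at 0, and Try10, Prss1, 2210010C04Rik and Gm2663 did not pass. In the list of other digestive enzymes 2 genes passed as higher, 2 as lower and 11 did not pass, with a median of -0.84 against 0.48 over all genes. Among them Amy2a5 was called lower with a log2 fold change of -3.10 ± 0.56 SE (edgeR adjusted p = 0.000554), under the copy limit given above. Pla2g1b, a pancreatic phospholipase, had 196 and 1443 CPM under TAK-981, against 2838 CPM in vehicle 1 (-2.27 ± 0.66 SE, edgeR adjusted p = 0.0355). In granule cargo Spink1 was called lower (-2.79 ± 0.66 SE, edgeR adjusted p = 0.00567), 0 genes were called higher and 9 did not pass. Of 6 tested Reg genes 0 passed in either direction, with a median of -0.42 and 6 fold changes from -0.95 to 0.19, and 0 of 6 other acinar genes passed.

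Of the 30 genes called lower under TAK-981, Clps included, 20 (66.7%) had a longest annotated transcript under 800 nt, as had 4 of the 23 higher genes (17.4%) and 180 of all 1440 tested (12.5%). Without Clps the lower count was 19 of 29. Of the 180 short genes 156 were not called. Ribosomal protein genes were lower for 8 of the 79 tested and higher for 0. Rps27, a ribosomal protein, had 196 and 414 CPM under TAK-981, against 1717 CPM in vehicle 1 (log2 fold change -3.005 ± 0.600 SE, edgeR adjusted p = 0.000712). Rps29, another ribosomal protein, had 398 and 653 CPM under TAK-981, against 2549 CPM in vehicle 1. Atp5k, a subunit of ATP synthase, had 15.9 and 56.9 CPM under TAK-981, against 253 CPM in vehicle 1, and Romo1, a small mitochondrial membrane protein, had 26.6 and 48.1 CPM under TAK-981, against 217 CPM in vehicle 1. Mt2, a metallothionein, had 47.8 and 96.2 CPM under TAK-981, against 416 CPM in vehicle 1. These 5 were named on the condition that the groups did not overlap. Other epithelial barcodes had the same order, with Rps27 at 460 and 1104 CPM under TAK-981, against 3568 CPM in vehicle 1. There Rps29 had 352 and 959 CPM under TAK-981, against 4474 CPM in vehicle 1, and Atp5k 53.9 and 113, against 686 CPM. Romo1 had 65.2 and 91.3, against 401 CPM, and Mt2 5.18 and 30.6, against 74.5 CPM. In the libraries compared, the direction was thus not particular to acinar barcodes. Vehicle 1 was the only vehicle library in both classes, and vehicle 2 was not compared for these genes. With TAK-981 1 left out, which leaves values without a test, the log2 fold changes of Rps27, Rps29, Atp5k, Romo1, Mt2, Spink1, Amy2a5 and Anapc13 lay between -1.96 and -1.71. With transcripts under 800 nt left out, a choice made after the data were seen, 13 genes were higher and 12 lower. The part of transcript length in the calls was not tested.

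**Figure D5:**
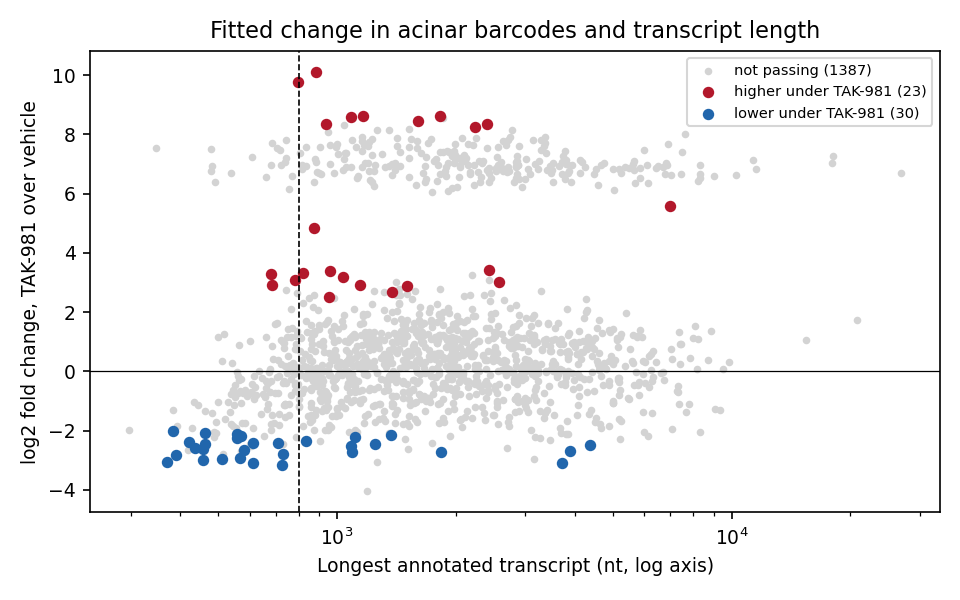
Fitted log2 fold change of TAK-981 over vehicle for the 1440 genes tested in acinar barcodes against the length of the longest annotated transcript (nt, log axis), with 23 higher genes in red, 30 lower in blue and the limit of 800 nt dashed. Lower genes gather at short lengths, and the band of grey points above 6 holds genes with 0 UMIs in vehicle 1, whose fitted size depends on the prior count.

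Other genes named by the rule were Anapc13, Ang, Lars2 and Gm42418 among the lower and Ran, Pgk1, Tpi1, Rbp4, Park7, Hnrnpf, C1qb and Irf7 among the higher. Ang, a secreted ribonuclease, had 95.6 and 29.2 CPM under TAK-981, against 235 CPM in vehicle 1 (log2 fold change -2.72 ± 0.61 SE, edgeR adjusted p = 0.00401), and its change was -1.33 with TAK-981 2 left out. Lars2, a mitochondrial leucyl-tRNA synthetase, had 998 and 144 CPM under TAK-981, against 2314 CPM in vehicle 1, and Anapc13, a subunit of the anaphase-promoting complex, had 5.31 and 32.1 CPM under TAK-981, against 145 CPM in vehicle 1. With TAK-981 2 left out the log2 fold changes of Lars2 and Gm42418 were -1.38 and -1.36, and with TAK-981 1 left out they were -3.78 and -4.37. Ran, a nuclear transport GTPase, had 276 and 305 CPM under TAK-981, against 18.1 CPM from 1 UMI in vehicle 1. The 7 from Pgk1 to Irf7 had 0 UMIs in acinar barcodes of vehicle 1, as had 267 of the 1440 genes tested in all. In CPM without the TMM scaling of the fit, the 7 were at least 1.86-fold to 2.42-fold above the floor in the lower TAK-981 library. With that scaling their mean TAK-981 level was 0.56 to 0.99 (log2) above the floor. Pgk1 and Tpi1 are glycolytic enzymes. In other epithelial barcodes Pgk1 had 1190 and 1269 CPM under TAK-981, against 853 CPM in vehicle 1, and Tpi1 1046 and 1225, against 614 CPM. There Rbp4 had 1685 and 1668 CPM under TAK-981, against 835 CPM in vehicle 1, and Hnrnpf 739 and 696, against 310 CPM. Park7 had 368 and 298 CPM, against 278 CPM. The part of epithelial RNA in the acinar values of these genes was not tested. Over all named genes the number of alternatives with a call ran from 0 of 9 for Anapc13 to 7 of 11 for Malat1 and Gm10334, with 1 of 10 for Ran, 1 of 11 for Gm42418, 3 of 9 for Pgk1, 2 of 9 for Tpi1 and 2 of 10 for Irf7, and 18 of the 24 were called in fewer alternatives than not. C1qb, a macrophage complement gene, had 234 and 117 CPM under TAK-981, from 21 of 90 and 2 of 32 barcodes, against 0 in vehicle 1, beside the macrophage list values above.

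In acinar barcodes, fixed lists linked to the drug gave few calls. Of 25 type I interferon genes 6 were tested; Irf7, a transcription factor of the interferon response, passed as higher with 117 and 134 CPM under TAK-981, against 0 UMIs in vehicle 1 (edgeR adjusted p = 0.04997), and Ifi27l2a passed as lower with 42.5 and 137 CPM under TAK-981, against 289 CPM in vehicle 1 (-2.09 ± 0.59 SE, edgeR adjusted p = 0.0311). Ifitm3, an antiviral membrane protein, had 1142 and 1515 CPM under TAK-981, against 850 CPM in vehicle 1, and Bst2, tetherin, had 510 and 334 CPM under TAK-981, against 108 CPM in vehicle 1, and neither passed. Of 7 tested MHC class I genes 0 passed, with a median of 1.62. H2-K1 had 754 and 484 CPM under TAK-981, against 90.4 CPM in vehicle 1 (2.17 ± 0.77 SE, edgeR adjusted p = 0.0937), and B2m had 802 and 676 CPM under TAK-981, against 199 CPM in vehicle 1 (1.31 ± 0.69 SE, edgeR adjusted p = 0.290). Of the SUMO paralogues, Sumo2 had 186 and 171 CPM under TAK-981, against 72.3 CPM in vehicle 1, and Sumo3 had 53.1 and 40.8 CPM under TAK-981, against 0 UMIs in vehicle 1, and neither passed. The median of all tested genes is 0 when those with no vehicle UMI are placed at their floor, and for interferon and MHC class I genes it is then 0.04 and 1.58. Other epithelial barcodes had Irf7 at 11.6 and 12.1 CPM under TAK-981, against 2.68 CPM in vehicle 1. There Ifi27l2a had 8.77 and 9.77 CPM under TAK-981, against 23.99 CPM, and H2-K1 155 and 137, against 57.2 CPM. The MHC class I list held 0.129 and 0.0885% of UMIs there under TAK-981, against 0.0497% in vehicle 1 and 0.0375% in vehicle 2. In the libraries compared, these directions were thus not particular to acinar barcodes. The single genes were compared with vehicle 1 alone. Ifitm3 had 61.3 and 24.2 CPM there under TAK-981, against 30.7 CPM in vehicle 1, with no shared direction.

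The stress lists gave no calls. In endoplasmic reticulum folding 0 of 15 tested genes passed, in the integrated stress response 0 of 4, in immediate early genes 0 of 12, in heat shock genes 0 of 7 and in p53 targets 0 of 4. Hspa8, a constitutive chaperone, had 1094 and 697 CPM under TAK-981, against 452 CPM in vehicle 1, and Btg2, an early response gene, had 234 and 241 CPM under TAK-981, against 36.2 CPM in vehicle 1. In the list of acinar to ductal change 1 of 10 tested genes passed as higher and 0 as lower. That gene was Spp1, which encodes osteopontin, with 733 and 853 CPM under TAK-981, against 72.3 CPM in vehicle 1 (log2 fold change 2.89 ± 0.81 SE, edgeR adjusted p = 0.0304). Other epithelial barcodes had 3805 and 4537 CPM of Spp1 under TAK-981, against 2833 CPM in vehicle 1. Spp1 was found in 35 of 90 and 11 of 32 acinar barcodes under TAK-981, against 3 of 11 in vehicle 1, and its level in barcodes of at least 25% enzyme UMIs was 152 and 53.6 CPM under TAK-981, against 21.0 CPM from 1 UMI in vehicle 1. The ductal or tumour epithelial list moved with it, at 0.273 and 0.199% of acinar UMIs under TAK-981, against 0.0832% in vehicle 1, and its part in the Spp1 values was not tested. Krt18, a keratin of simple epithelia, had 982 and 841 CPM in acinar barcodes under TAK-981, against 127 CPM in vehicle 1 (2.26 ± 0.75 SE, edgeR adjusted p = 0.0701). For Clu the fitted difference was 0.01 ± 0.72 SE (edgeR adjusted p = 0.997), which spans a wide range of fold changes.

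Whether TAK-981 changed acinar barcodes and other epithelial barcodes unequally was tested as an interaction in 12822 genes, of which 4 passed (0.0312%), and DESeq2 called 0 (0%), with 138 genes at an unadjusted p below 0.05. Of these 12822 genes 9964 (77.7%) had 0 UMIs in acinar barcodes of vehicle 1, and the median interaction was 8.89 over all genes and 0.11 over those with a vehicle 1 UMI. Vehicle 1 was the only vehicle library here too, so a pass says nothing of the spread between vehicle mice. The fit pooled its spread over genes, with 12822 total degrees of freedom. Pla2g1b had an interaction of -5.37 ± 0.89 SE on the log2 scale. Its level in other epithelial barcodes was 5.82 and 5.46 CPM under TAK-981, against 0.447 CPM in vehicle 1. Ly6a, a surface antigen, had 1524 and 681 CPM in acinar barcodes under TAK-981, against 127 CPM from 7 UMIs in vehicle 1. In other epithelial barcodes Ly6a had 22.9 and 16.7 CPM under TAK-981, against 18.6 CPM in vehicle 1 (interaction 3.46 ± 0.77 SE). Malat1 had 5817 and 10388 CPM in other epithelial barcodes under TAK-981, against 7758 CPM in vehicle 1, and an interaction of 6.59 ± 1.31 SE. The fourth, mt-Nd3, had 0 UMIs in acinar barcodes of vehicle 1, and its fitted size has no bound. In other epithelial barcodes mt-Nd3 had 92.2 and 137 CPM under TAK-981, against 614 CPM in vehicle 1.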

How the data were processed

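Single-cell RNA of 4 tumours was measured with 10x 3' v3.1 chemistry, per the labels' protocols. The deposited values were raw UMI counts per gene and barcode, and the authors made them with Cell Ranger 6.1.2, per the file headers, on mm10, as the submitters' processing notes say. The acinar rule, the gene lists and the named genes were chosen with earlier results of these data known. Counts of acinar barcodes were summed per library and scaled to CPM. Genes were tested with edgeR 4.0.16 (quasi-likelihood, TMM scaling, filterByExpr, Benjamini-Hochberg at 0.05) in R 4.3.3, with 2 TAK-981 libraries against vehicle 1 and at least 10 acinar barcodes per library. DESeq2 1.42.0, other scaling, filters and limits served as alternatives. The script was tested on simulated data with the same spread set for all genes, which does not show how the fits behave at the spread of these libraries. In that simulation the interaction fit missed most changed genes that had few vehicle 1 acinar counts. Shares were compared by exact permutation over libraries. Named genes had an adjusted p below 0.05, a mean log2 CPM of 5 or more and groups that did not overlap, up to 12 in each direction by size, plus rule genes, Reg genes, transcription factors, SUMO paralogue and sex-linked genes, members of each list with the most RNA or a call, and interaction calls. Doublets were kept in the main results; Scrublet at a rate of 0.8% per 1000 barcodes was an alternative. Libraries of 1 group were not copies of each other, as chi-squared values per degree of freedom were 125 (TAK-981) and 170 (vehicle). Whether equal replicate numbers pair mice is not stated. Transcript lengths came from the reference annotation, and scanpy 1.11.5 and Python 3.11.15 were used. Columns not used numbered 0. Some genes are not reported here.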

Additional observations from a re-analysis of the deposited data

Results flagged for a closer look

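Barcodes that met the enzyme rule but not the limits on UMIs, genes or mitochondrial share were outside the comparisons above, and they numbered 134 in TAK-981 1 and 8 in TAK-981 2, against 6 in vehicle 1 and 0 in vehicle 2. Most had under 250 genes, 117 and 7 under TAK-981 and 6 in vehicle 1. Over 20% mitochondrial UMIs were found in 48 and 2 under TAK-981 and in 1 in vehicle 1. They drew attention as a signal in data that the report did not use, above the 0 of vehicle 2.

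Pla2g1b, Ly6a, Malat1 and mt-Nd3 were marked by the interaction fit of acinar against other epithelial barcodes, in which vehicle 1 was the only vehicle library. Their interactions were -5.37, 3.46, 6.59 and 17.0 on the log2 scale. Ly6a and Malat1 had 7 and 1 UMIs in acinar barcodes of vehicle 1. The size for mt-Nd3 rests on 0 UMIs in acinar barcodes of vehicle 1, and 26 and 32 UMIs under TAK-981. It also rests on other epithelial barcodes, with 92.2 and 137 CPM under TAK-981, against 614 CPM in vehicle 1. No group had the 4 samples that a search for single outlying libraries needs.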

How the results depend on the processing

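The acinar share difference of 2.38 percentage points kept its direction under every alternative run, from 1.18 at 25% enzyme UMIs to 4.26 without limits on UMIs, genes or mitochondrial share, both chosen after the data were seen. It ranged from 0.883 to 3.87 when each replicate was left out, and with same-numbered replicates as pairs (replicate block) it was 2.38 with an exact p of 0.5, the smallest that 2 pairs allow. Enzyme RNA in other barcodes differed by 0.0300 percentage points, from 0.0193 to 0.0959 under alternatives, 0.0108 to 0.0492 with each replicate left out, and 0.0300 under the replicate block (exact p = 0.5).

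The 53 acinar gene calls became 0 with DESeq2 size factors in edgeR (241 genes at an unadjusted p below 0.05), 0 at 10% enzyme UMIs (155), 0 at 25% (70) and 0 with doublets removed (235). They became 135 without composition scaling, 14 by DESeq2, 5 without a filter on low counts, 15 with the enzyme genes left out, 22 at 10% mitochondrial UMIs and 25 without transcripts under 800 nt; the cause was not tested. The 4 interaction calls became 2 without composition scaling, 0 by DESeq2 (138), 12 with the enzyme genes left out, 2 at 10% enzyme UMIs, 0 at 25% (182) and 2 without transcripts under 800 nt. Of the 24 named genes, Clps among them although it belongs to the rule, none reversed under an alternative run, but 166 of 274 tested gene values lost their call. No paired analysis was possible for genes because 3 libraries leave no residual degree of freedom with a block, and leaving out a library left values without a test. Libraries with at least 30 acinar barcodes held no vehicle sample, so that fit was not run.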
